A study of Mus musculus with 60 samples.

Results

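The genes described here are 9 markers of microglia, the resident immune cells of the brain: C1qa, C1qb, C1qc, Cx3cr1, P2ry12, Csf1r, Siglech, Tmem119 and Trem2. They were chosen by name as known microglial genes, with earlier results of these data known. They were looked up by symbol in 10 tables that together hold 13986 genes. All 9 were held in each of the 10 tables, which makes 90 entries and leaves none missing. The tables come from poly(A)-enriched RNA of ventral, dorsal and whole hippocampus of wild-type C57BL/6 mice at postnatal day 105, sequenced in 60 libraries. The libraries form 12 groups of 5, namely Handling, Restraint, Swim and Homecage mice in each of the 3 tissue samples, with treated mice taken 45 minutes after treatment. No transgene or deletion was involved, and the labels do not say whether a ventral and a dorsal library of the same number came from 1 mouse. In 9 tables the authors compared a treatment with Homecage of the same tissue, and in the tenth they compared ventral with dorsal hippocampus of Homecage mice. The 3 treatments of a tissue share its Homecage libraries, and so does the regional table with the ventral and dorsal treatment tables.

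Microglia populate the brain from the yolk sac early in life, survive on signals through the receptor Csf1r, and survey synapses and injured cells with motile processes. In the hippocampus the fractalkine receptor Cx3cr1 answers a ligand made by neurons, P2ry12 senses nucleotides released by active or damaged cells, and C1q made by microglia tags synapses for removal. Trem2 senses lipids and debris, and Tmem119 and Siglech are membrane proteins used to tell microglia from other macrophages. Border-associated macrophages share several of these transcripts, while P2ry12 and Tmem119 are the most restricted to microglia.

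The files hold group means and the authors' comparisons, so no value of a single library, and no standard deviation, can be given. The replicate error is that of the authors' p-value, which is adjusted over all genes of a table, and a gene is called higher or lower where this adjusted p is under 0.05. The 95% intervals of a fold change used here were derived from the deposited fold change and its p. Summed over the genes held, a group mean came to 19.9M at the least and 25M at the most (M, mega), in estimated counts. The check that the treatments reached the tissue was Fos, an activity-dependent transcription factor, which in the authors' deposited tables was higher in 9 of 9 treatment comparisons, by 1.35 to 2.06 on the log2 scale. Ttr, the transthyretin gene of choroid plexus, was called higher in 4 of the 9 treatment tables, by 5.39 in ventral Handling, 4.94 in dorsal Restraint and 1.86 in whole Restraint in the authors' deposited tables. The fourth was whole Handling, where its level was 72.6 CPM, against 16.4 CPM in whole Homecage (adjusted p 0.0277 in the authors' deposited table). Its part in the microglia values was not tested, and no microglia gene was called in any of these 4.

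The C1q genes lie side by side on chromosome 4 within 18.7 kb (GRCm38, GENCODE annotation), with no other annotated gene between their outer ends. The promoters of 2 members with low ventral values are shown because microglial genes are commonly regulated by the factor PU.1, whose core sequence GAGGAA was searched on both strands in the 250 bases before the start site. The sequences are from RefSeq (GRCm38.p6), C1qb at chr4:136886201-136886450 on the minus strand and Trem2 at chr17:48346151-48346400 on the plus strand. They are written 5′ to 3′ on the strand of the gene, and capitals mark the match, which in Trem2 lies on the opposite strand and reads as the reverse complement.
C1qb: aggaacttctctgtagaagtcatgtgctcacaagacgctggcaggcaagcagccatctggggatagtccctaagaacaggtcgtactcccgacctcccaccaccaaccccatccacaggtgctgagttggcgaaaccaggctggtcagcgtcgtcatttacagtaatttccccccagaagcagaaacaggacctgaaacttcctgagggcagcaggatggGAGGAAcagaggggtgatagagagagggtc
Trem2: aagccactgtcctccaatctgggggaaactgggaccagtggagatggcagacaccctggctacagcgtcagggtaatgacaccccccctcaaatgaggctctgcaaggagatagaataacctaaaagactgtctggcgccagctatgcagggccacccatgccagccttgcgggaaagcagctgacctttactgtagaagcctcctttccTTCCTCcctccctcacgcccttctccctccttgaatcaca
The match begins 30 bases before the start site in C1qb and 40 bases before it in Trem2. C1qc holds a match 193 bases before its start, so 3 of the 6 members in the RefSeq table had one, and 23.1% of 27025 promoters of the table hold at least 1. The start sites are those of RefSeq: the nearest start in the GENCODE annotation is the same base for Trem2 and 13 bases away for C1qb, and neither window holds an annotated exon. The windows of the other 4 members overlap annotated exons, by 151 of 250 bases in C1qc and 250 of 250 in Cx3cr1 and P2ry12, so they may lie within transcripts. A match describes the letters and shows no binding. C1qa, Csf1r and Tmem119 have no entry in the table used here.

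Levels are given in CPM, counts scaled to a common library size, here each group mean scaled by the total of its group over the genes held. The bars that can be set on them cover counting error only, over the pooled reads of 5 libraries, and not the spread between mice. To compare genes with each other, the level was divided by the exonic length of the gene. C1qa and C1qb, chains of the complement initiator C1q, were the most abundant at 30.8 and 30.7 CPM per kb in the mean of 12 groups, and these neighbours in the order did not differ beyond their ranges over groups of 26.3 to 36.5 and 26.5 to 35.1. Csf1r followed at 16.4, C1qc at 14.5, P2ry12 at 11.3, Cx3cr1 at 9.98, Tmem119 at 8.41, Siglech at 3.58 and Trem2 at 1.99 CPM per kb. The ranges over groups overlapped between neighbours from Csf1r down to Tmem119, and did not between C1qb and Csf1r, Tmem119 and Siglech, or Siglech and Trem2. These places depend on which transcripts count toward the length. Over its longest coding transcript C1qc had 23.3 CPM per kb and ranked above Csf1r, which had 20.1 on that measure. For Trem2, over its longest coding transcript of 1088 bases, in place of 4946 exonic bases in all, the level was 9.05 CPM per kb and ranked 7th of the 9. Csf1r shares 873 of its 5774 exonic bases with Hmgxb3 on the other strand, and whether counting used the strand is not stated. For P2ry12 and Cx3cr1 the shared stretches were 9 and 78 bases.

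The 3 chains of C1q kept similar proportions across the groups, with a difference by tissue for C1qa. C1qa stood at 0.897 to 0.924 times C1qb in whole, 0.962 to 1.01 times in dorsal and 0.967 to 0.990 times in ventral groups. The whole groups thus lay below those of both parts. C1qc stood at 0.769 to 0.880 times C1qb in the 12 groups. C1qa had 29.7, 29.4, 30.8 and 28.5 CPM in ventral Handling, Restraint, Swim and Homecage groups, against 36.8, 35.9, 34.7 and 37.9 CPM in the dorsal groups in the same order. The 4 ventral values lay below the 4 dorsal values with no overlap, and the highest ventral and the lowest dorsal group, both Swim, were closest. C1qb had 30.3, 30.4, 31.7 and 28.8 CPM in the ventral groups and 38.2, 37.4, 34.4 and 38.1 CPM in the dorsal groups. C1qc had 25.6, 26.1, 27.7 and 24.2 CPM in the ventral groups and 30.1, 28.7, 27.9 and 33.1 CPM in the dorsal groups. Both chains showed the same separation, and the gap was narrowest for C1qc, between its Swim groups.

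Trem2, the lipid-sensing receptor, had 8.66, 8.53, 9.14 and 8.52 CPM in ventral Handling, Restraint, Swim and Homecage groups and 10.7, 10.7, 9.86 and 11.9 CPM in the dorsal groups. Csf1r, the receptor for the growth factors Csf1 and Il34, had 93.1, 93.5, 90.7 and 89.3 CPM in the ventral groups and 105, 108, 98.1 and 102 CPM in the dorsal groups. Neither receptor overlapped between the regions. Cx3cr1 had 40.6, 42.1, 40.3 and 42.1 CPM in the ventral groups and 46.6, 48.2, 47.5 and 48.9 CPM in the dorsal groups. P2ry12 had 23.1, 24.5, 24.3 and 25.3 CPM in the ventral groups and 27.7, 27.9, 27.6 and 27.4 CPM in the dorsal groups. These sensors of neuronal signals were also separated by region in all 4 conditions. Siglech, a sialic acid-binding lectin, had 9.71, 11.2, 10.6 and 11.2 CPM in the ventral groups and 12.7, 12.1, 12.7 and 12.3 CPM in the dorsal groups, again without overlap. Tmem119 was the exception, with 18.2, 18.6, 20.1 and 17.0 CPM in the ventral groups and 22.9, 22.02, 19.97 and 21.4 CPM in the dorsal groups, so that ventral Swim reached the level of dorsal Swim. Thus 8 of 9 members had all 4 ventral levels below all 4 dorsal levels, as did 19.1% of the 13394 genes held for every group.

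**Figure D1:**
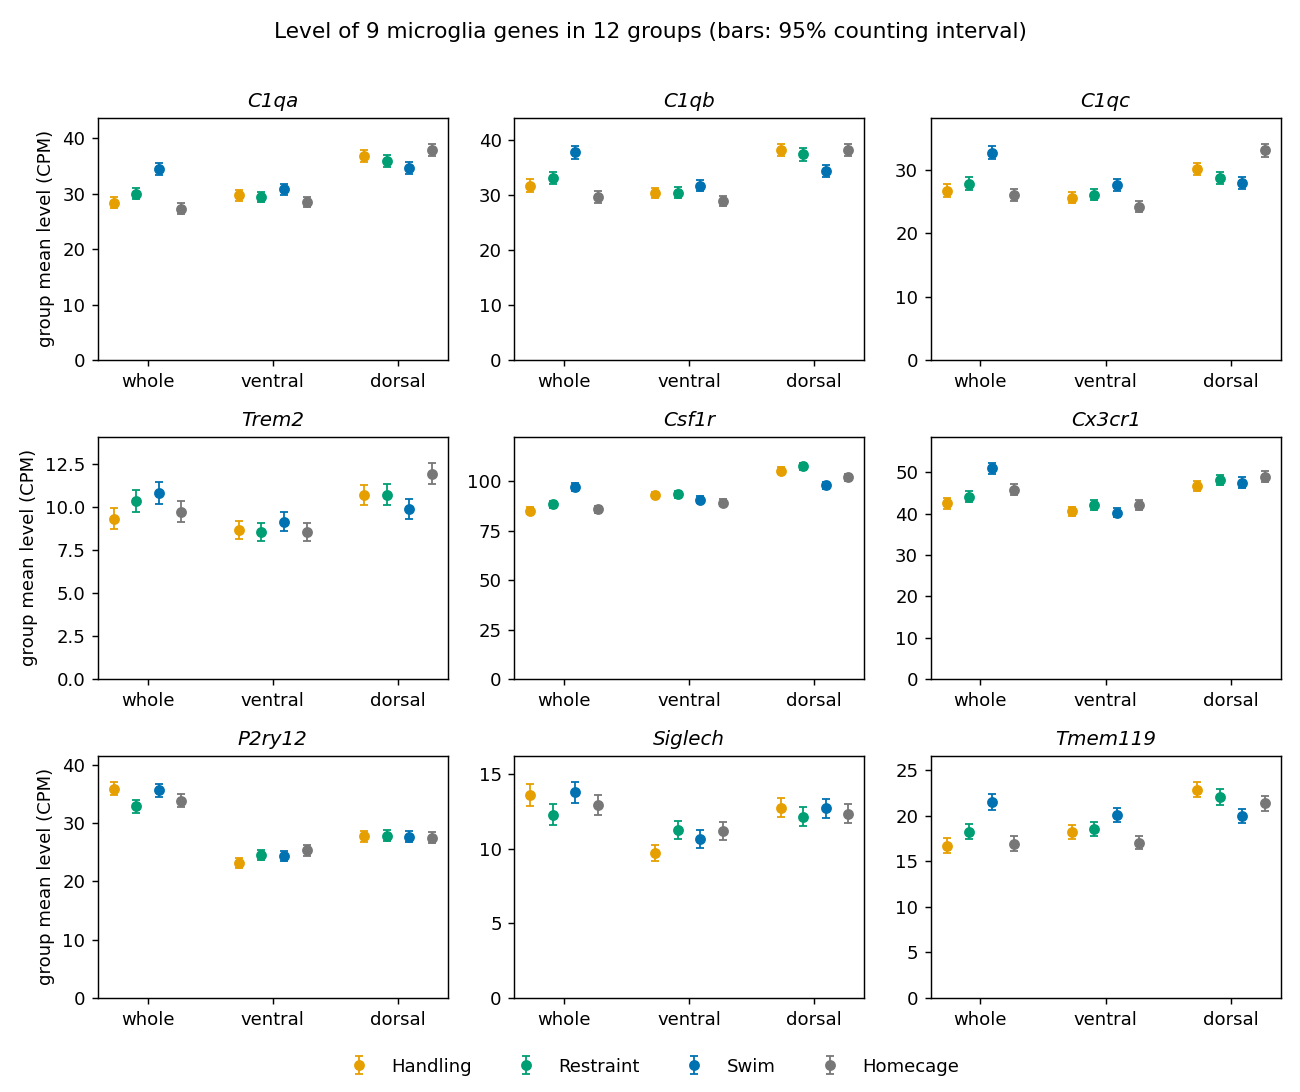
Level of each of the 9 microglia genes in CPM (vertical axis, from 0) in whole, ventral and dorsal hippocampus; points are group means of 5 libraries for Handling, Restraint, Swim and Homecage, and bars are 95% counting intervals, not the spread between mice. In 8 of 9 panels the 4 ventral points lie below the 4 dorsal points, and Tmem119 is the exception; P2ry12 is highest in whole hippocampus, at 32.9 to 35.9 CPM.

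For several members, as for many other genes, whole hippocampus did not lie between its ventral and dorsal parts. P2ry12 had 35.9, 32.9, 35.6 and 33.8 CPM in whole Handling, Restraint, Swim and Homecage groups, above every ventral and dorsal group. Siglech also exceeded the ventral and the dorsal level of its own condition in all 4 conditions, with 12.3 to 13.8 CPM. Csf1r in whole hippocampus was below both parts after Handling and Restraint and in Homecage mice, at 85.2, 88.5 and 85.8 CPM, and at 97.1 CPM after Swim it lay between them. The summed level of the C1q chains was 2.42 to 2.95 times that of P2ry12 in whole hippocampus, 3.22 to 3.70 times in ventral and 3.51 to 3.98 times in dorsal hippocampus. Whole and divided samples share no deposited comparison, so these differences carry no test. P2ry12 and Siglech have the lowest GC content of the members, 39.4% and 47.9%. C1qa, Tmem119 and Csf1r, below both parts in Homecage mice, have 59.5%, 59.5% and 54.2%. C1qb and C1qc, at 57.4% and 56.7%, lay between the parts there. The part of GC content in these levels was not tested. After Swim 7 of 9 members lay above both parts, all but C1qa and Csf1r, as did 29.9% of all genes. In Homecage mice 2 members lay above both parts and 3 below both, where 24.9% of all genes lay above and 33.9% below. After Handling 2 members lay above and 3 below, against 28.2% and 40.3% of all genes. After Restraint 2 lay above and 2 below, against 29.6% and 34.8% of all genes.

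In Homecage mice, microglia genes were lower in ventral than in dorsal hippocampus. The authors' deposited table called 7 of the 9 lower and none higher, where 20% of its 13754 genes were called lower and 18.4% higher. All 9 values were negative, and their median was -0.37 against -0.01 over all genes, both taken from the authors' deposited table. The receptor Trem2 had the most negative value, -0.52 in the authors' deposited table (adjusted p 1.5e-04), from mean estimated counts of 213 in ventral and 278 in dorsal libraries. In bulk tissue, fewer microglia and less RNA of these genes per microglial cell cannot be told apart.

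The C1q chains had values close to each other. C1qc had a log2 value of -0.50 in the authors' deposited table (604 counts ventral and 773 dorsal, adjusted p 6.5e-04). C1qa stood at -0.46 in the authors' deposited table (714 and 886 counts, adjusted p 1.9e-06), and C1qb at -0.45 there (721 and 891 counts, adjusted p 9.8e-06). Their 95% intervals, -0.75 to -0.24 for C1qc, -0.63 to -0.28 for C1qa and -0.63 to -0.27 for C1qb, overlapped almost fully. Tmem119, the membrane protein, stood at -0.37 in the authors' deposited table (426 and 499 counts, adjusted p 8.1e-05). The receptors Cx3cr1 and Csf1r were lower by less, at -0.26 (1053 and 1143 counts, adjusted p 1.1e-04) and -0.23 (2234 and 2383 counts, adjusted p 2.3e-04) in the authors' deposited table. Siglech at -0.18 (adjusted p 0.102) and P2ry12 at -0.16 (adjusted p 0.105) did not pass in the authors' deposited table. Their intervals, -0.36 to -0.003 and -0.31 to -0.001, ended just below 0.

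The regional values moved with the GC content of transcripts. Across genes of the regional table the log2 fold change had a Spearman correlation of -0.37 with GC content, and the members run from 39.4% GC in P2ry12 to 59.5% in C1qa and Tmem119. With the trend on GC content subtracted, 6 members were called lower and the median was -0.25, and over all genes 14.2% were called lower and 17.5% higher. C1qa at -0.21 (adjusted p 0.0516) and Tmem119 at -0.13 (adjusted p 0.254) no longer passed, and P2ry12 at -0.28 (adjusted p 0.00237) did. Trem2, C1qc, C1qb, Cx3cr1 and Csf1r passed both ways. Total-count scaling in place of the authors' scaling moved every gene by 0.041 and left the 7 calls in number, while over the table it gave 3224 higher and 2271 lower genes against 2532 and 2751 as deposited.

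**Figure D2:**
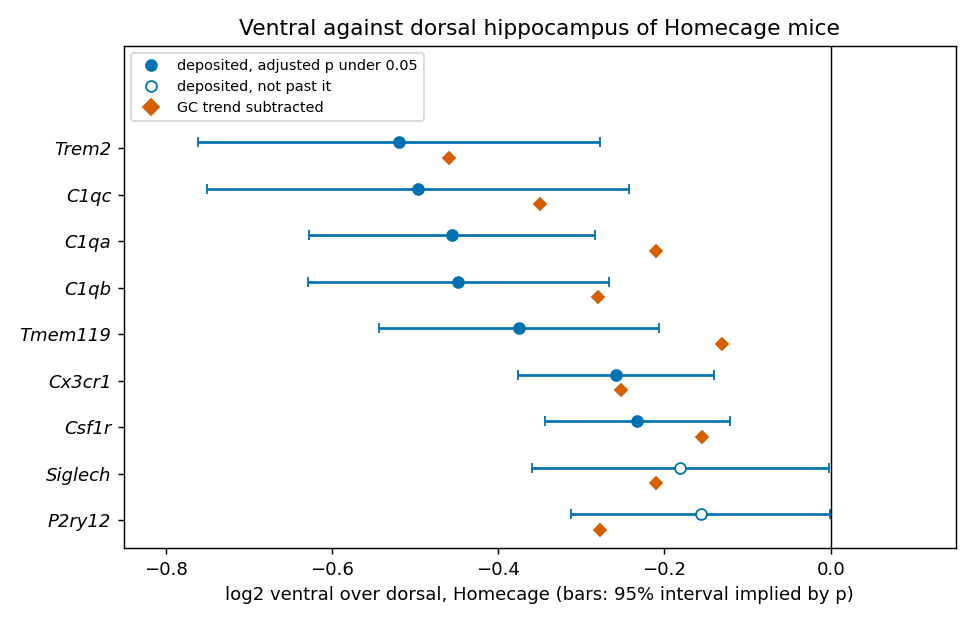
Log2 fold change of each microglia gene in ventral over dorsal hippocampus of Homecage mice (horizontal axis); circles are deposited values with 95% intervals derived from the deposited p, filled where the adjusted p was under 0.05, and diamonds are the same values with the trend on transcript GC content subtracted. All 9 circles and all 9 diamonds lie left of 0, and Tmem119 and C1qa move most toward it.

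The lower ventral level was also seen, by description, in mice that the regional table did not use. As the ratio of CPM, the median over members of ventral over dorsal was -0.30 on the log2 scale in Handling mice, -0.20 in Restraint mice, -0.12 in Swim mice and -0.33 in Homecage mice. In Handling, Restraint and Homecage mice 9 of 9 members were lower in ventral hippocampus, and in Swim mice 8 of 9 were, with Tmem119 at 0.01. Over all genes the medians were 0.01 to 0.03 and 42.5% to 46.8% of genes were lower in ventral hippocampus. The authors made no ventral against dorsal comparison in treated mice, and these ratios carry no test.

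The surroundings of the 9 genes were read from fixed lists of related genes. Of 30 other genes of homeostatic microglia, 10 were lower in ventral than in dorsal hippocampus of Homecage mice and none was higher. Over all genes 20% were called lower and 18.4% higher. The list had a median of -0.19, and 11 were lower after the GC trend was subtracted, where 14.2% of all genes were. Selplg, a ligand of selectins, stood at -0.42 in the authors' deposited table (adjusted p 3.2e-04) and Laptm5, a lysosomal membrane protein of immune cells, at -0.31 (adjusted p 0.0010). Of the 30, 3 had positive values that did not pass, Mertk at 0.16, Ptprc at 0.10 and Lgmn at 0.04. Gpr34 at -0.02, Sall1 at -0.04 and Tyrobp at -0.06 did not pass either. In the fractalkine and purine list 4 of 10 were lower and none higher, or 3 lower and none higher after the GC trend was subtracted. Cx3cl1, the neuronal ligand of Cx3cr1, stood at -0.36 (adjusted p 2.9e-09 in the authors' deposited table), so that ligand and receptor were both lower in ventral hippocampus. The nucleotide receptors P2ry6 and P2ry13 stood at -0.76 and -0.26 and the potassium channel Kcnk13, which shapes microglial surveillance, at -0.39 in the authors' deposited table.

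Around Csf1r, 4 of 8 genes were lower and none higher, where 20% of all genes were called lower and 18.4% higher. Csf1, one of its ligands, stood at -0.31 in the authors' deposited table (adjusted p 4.7e-04), while Il34, the other and mainly neuronal ligand, stood at 0.17 and did not pass (adjusted p 0.056). Inpp5d, a lipid phosphatase, and Plcg2, a phospholipase, both act below Csf1r and Trem2, and were lower, at -0.31 and -0.30 in the authors' deposited table. In the list around Trem2, which shares Inpp5d and Plcg2, 3 of 9 were lower and 1 higher. The higher one was Adam10, a protease that sheds Trem2 and many other membrane proteins, at 0.18 in the authors' deposited table. Tyrobp, the signalling partner of Trem2, stood at -0.06 there and did not pass (adjusted p 0.704 in the authors' deposited table), and Apoe and Clu, lipid carriers that bind Trem2, at -0.27 (adjusted p 0.0682) and -0.13 (adjusted p 0.0650) did not either. After the GC trend was subtracted, the list around Csf1r had 2 lower and 1 higher and the list around Trem2 had 2 lower and none higher. Over all genes 14.2% were called lower and 17.5% higher with that trend subtracted.

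Among partners and regulators of C1q the direction was the other way for some. Of 12 genes 4 were higher in ventral hippocampus and 1 was lower, where 18.4% of all genes were called higher and 20% lower. The C1 proteases C1ra and C1s1 stood at 0.59 and 0.78, and Cd55 and Cd59a, membrane inhibitors of complement, at 0.58 and 0.41, in the authors' deposited table. The lower one was C1ql3, a C1q-like synaptic protein of neurons, at -0.31 in the authors' deposited table. Of 9 microglial transcription factors 3 were lower, Smad3 at -0.30, Bhlhe41 at -0.41 and Cebpa at -0.84, and Tal1, also a factor of blood and endothelial cells, was higher at 0.55, in the authors' deposited table. Spi1, which encodes PU.1, and Irf8 stood at -0.24 and -0.19 in the authors' deposited table and did not pass (adjusted p 0.383 and 0.282).

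Genes of activated microglia were mixed, with 5 of 15 lower and 2 higher. Gpnmb, a glycoprotein of phagocytes, was lowest at -1.24 and Timp2, a metalloprotease inhibitor that neurons also express, highest at 1.90 in the authors' deposited table. Clec7a, Cst7, Itgax, Cd52 and Lgals3 of that list were not held in this table. Cytokine and inflammatory genes had 4 of 16 higher and 4 lower, and interferon response genes 1 higher and 1 lower of 10. Over all genes 18.4% were called higher and 20% lower. Cd200, a neuronal protein that restrains microglia, stood at 0.88 (adjusted p 1.1e-27 in the authors' deposited table).

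Markers of other cell types were read in the same table, where 18.4% of all genes were called higher and 20% lower. Of 4 border-associated macrophage markers held, 3 were higher in ventral hippocampus, Mrc1 at 0.63, Cd163 at 0.86 and F13a1 at 0.85 in the authors' deposited table. Stab1, the fourth, stood at -0.21 and did not pass (adjusted p 0.0665 in the authors' deposited table), and made 17.8 CPM in ventral and 20.01 CPM in dorsal hippocampus. The 4 together made 24.9 CPM in ventral and 24.2 CPM in dorsal hippocampus, and Lyve1, Pf4, Ms4a7, Cbr2, Cd209f and Ccl24 were not held. Oligodendrocyte markers moved with the members: 11 of 11 were lower, with a median of -0.59 and a summed level of 3232 CPM in ventral and 4784 CPM in dorsal hippocampus. Choroid plexus markers had 3 of 7 lower and 1 higher, with sums of 195 and 241 CPM in ventral and dorsal hippocampus. Of these sums Enpp2 alone made 135 and 159 CPM. Ttr made 27.6 and 40.5 CPM and did not pass (adjusted p 0.378 in the authors' deposited table). Pericyte and meningeal fibroblast markers had 6 of 12 higher and none lower, and sums of 360 and 225 CPM, led by Dcn, which also marks ventral pyramidal neurons, at 3.57 in the authors' deposited table. Neuron markers had 6 of 12 higher and 4 lower, astrocyte markers 3 of 12 higher and 1 lower, oligodendrocyte precursor markers 2 of 8 higher and 3 lower (3 higher and none lower with the GC trend subtracted), endothelial markers 1 of 12 higher, and blood cell markers 1 of 7 higher. Of 10 monocyte and neutrophil markers 2 were held and neither was called. The part of other cell types in the microglia values was not tested.

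**Figure D3:**
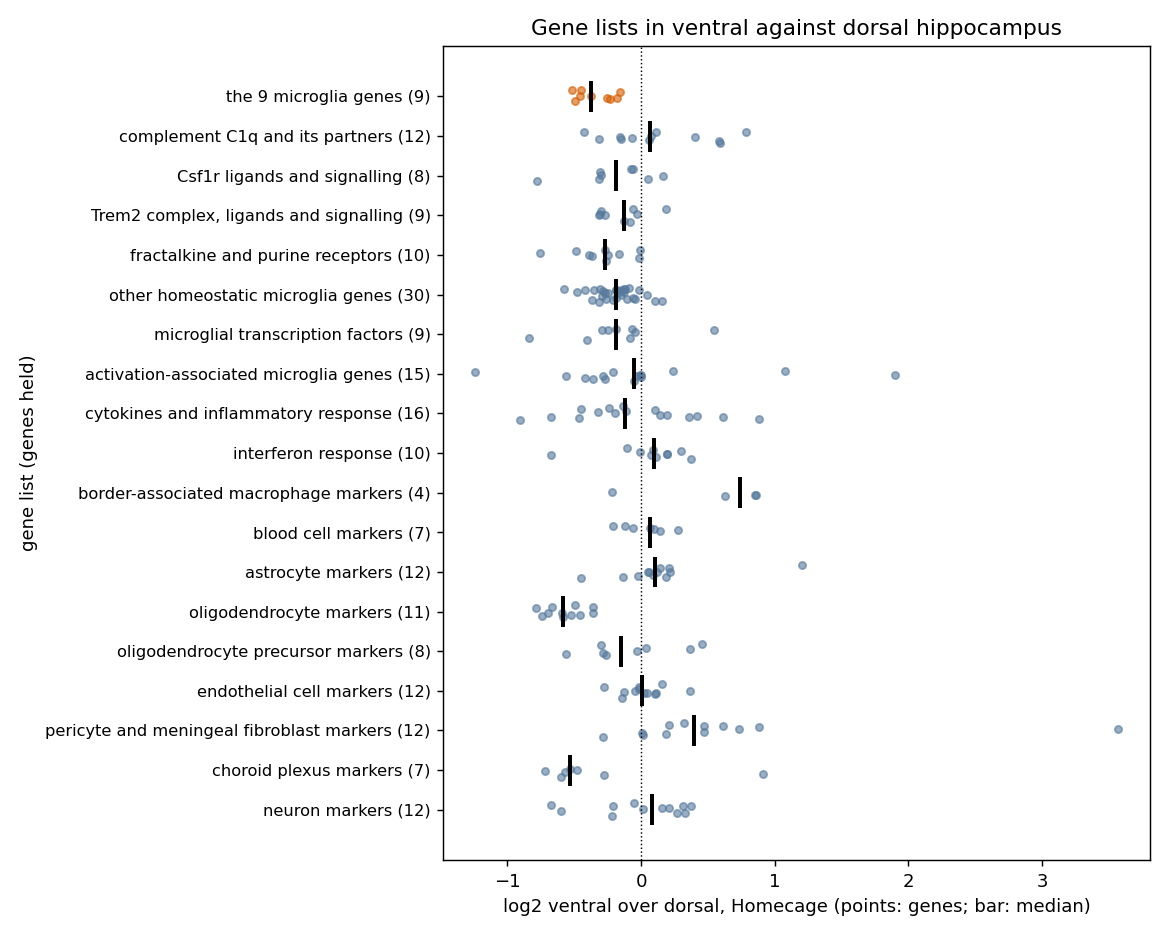
Log2 fold change in ventral over dorsal hippocampus of Homecage mice (horizontal axis) for the genes of each list, with the number of genes held in brackets; points are genes and black bars are list medians, and the 9 microglia genes are in orange. The microglia genes have a median of -0.37, the other homeostatic microglia genes -0.19, oligodendrocyte markers -0.59 and border-associated macrophage markers 0.74.

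The treatments moved the 9 genes little within 45 minutes. Among 81 member values, the authors' deposited tables called 1, Tmem119 in ventral hippocampus after Swim, and 73 of the 81 were under 0.2 in size on the log2 scale. At an unadjusted p under 0.05 there were 6 higher and 3 lower values, or 11.1% of the 81, where all genes had 9.09% on average over the 9 tables and 2.84% to 24.0% in single ones. The full span was -0.29 to 0.35. None of the 9 was called in whole hippocampus, where 0.395% of genes were called after Handling, 0.541% after Restraint and 0.395% after Swim. None was called in dorsal hippocampus, where the shares were 0.125%, 0.616% and 0.447%. In ventral hippocampus none was called after Handling (0.856% of genes) or Restraint (2.39%), and 1 was after Swim, where 4.65% of genes were called higher and 2.29% lower.

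**Figure D4:**
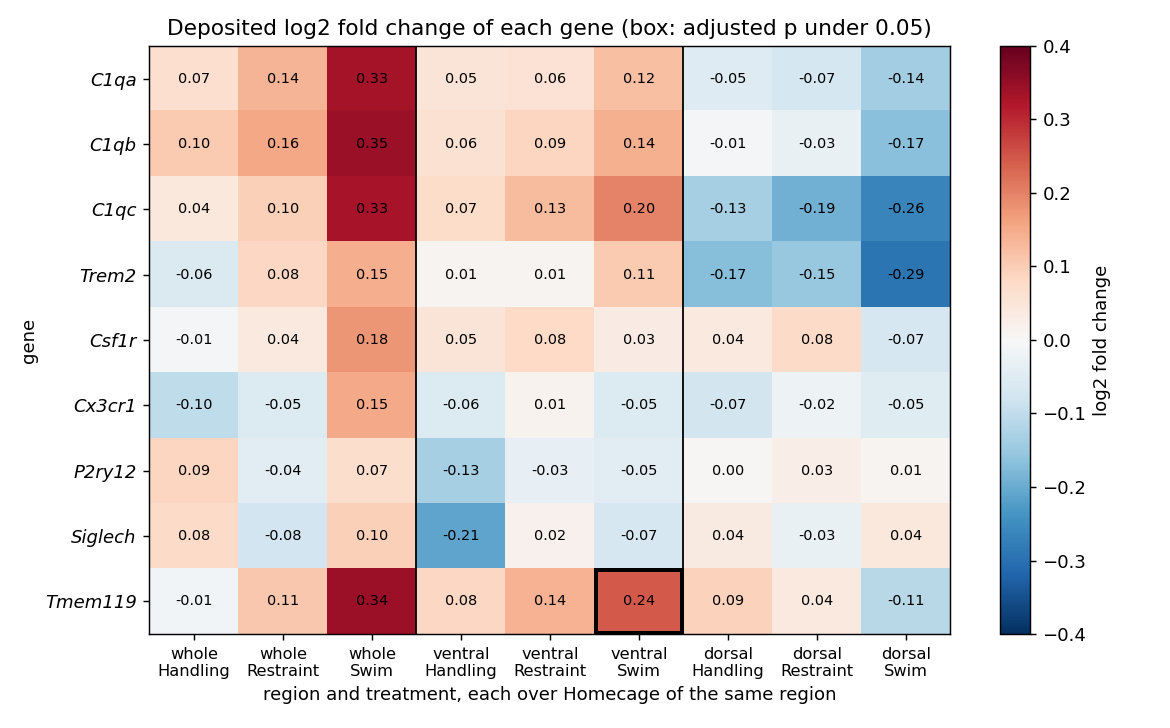
Deposited log2 fold change of each microglia gene (rows) in each tissue and treatment over Homecage of the same tissue (columns); red is higher than Homecage, blue is lower, and the box marks the 1 value with an adjusted p under 0.05. The whole Swim column is positive in 9 of 9 genes, and the dorsal Swim column is negative in 7 of 9.

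Tmem119 had a mean of 493 estimated counts after Swim in ventral hippocampus and 426 in Homecage, a log2 fold change of 0.24 in the authors' deposited table (adjusted p 0.0200). The derived 95% interval was 0.10 to 0.39. This call did not stand with the GC trend subtracted, where the value was 0.06 (adjusted p 0.967). The ventral Swim table follows GC content closely, with a Spearman correlation of 0.70 across genes, and its calls numbered 640 higher and 315 lower as deposited and 76 higher and 35 lower with the trend subtracted. The other members in that table ran from -0.07 for Siglech to 0.20 for C1qc, and 6 of 9 were positive. With the GC trend subtracted 5 of 9 were, C1qa and Csf1r turning to -0.06 and -0.02 and P2ry12 to 0.10, with C1qb at 0.01 and C1qc at 0.09. C1qc had 679 counts after Swim and 604 in Homecage in the authors' deposited table, and its adjusted p of 0.252 did not pass. Beside these values, 3 of 8 oligodendrocyte precursor markers were called higher in ventral Swim as deposited, where 4.65% of all genes were. That list summed to 267 CPM after Swim and 250 CPM in Homecage, and its calls are given without the GC trend subtracted. The part of those cells in the Tmem119 value was not tested.

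In whole hippocampus after Swim all 9 genes had positive values, with a median of 0.18 against 0.00 over all genes. C1qb stood at 0.35 (807 counts after Swim and 615 in Homecage), Tmem119 at 0.34 (459 and 352), C1qa at 0.33 (737 and 568) and C1qc at 0.33 (699 and 541) in the authors' deposited table. Each of these 4 had an unadjusted p under 0.05, but the lowest adjusted p among the 9 was 0.819 in the authors' deposited table. Their derived intervals were wide, for C1qb 0.02 to 0.67. Across genes of this table the log2 fold change had a Spearman correlation of 0.30 with GC content and -0.41 with length, and C1qa, C1qb, C1qc and Tmem119 are short and rich in GC. All 9 values stayed positive with either trend subtracted, at a median of 0.15 for GC content and 0.18 for length, while C1qb and C1qa came to 0.20 and 0.18 with the length trend subtracted. P2ry12 and Siglech were nearest to 0, at 0.07 and 0.10 in the authors' deposited table. Of the 30 other homeostatic microglia genes, 29 were positive in whole Swim with a median of 0.15, and none was called. Blood cell markers were positive in 7 of 7 cases with a median of 0.84 and none called, and their summed level was 754 CPM after Swim and 556 CPM in Homecage. Oligodendrocyte markers were positive in 11 of 11 with none called, at 4503 CPM after Swim and 3688 CPM in Homecage. The part of either in the microglia values was not tested.

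In dorsal hippocampus after Swim 7 of 9 values were negative, with a median of -0.11. Trem2 stood at -0.29 (239 counts after Swim and 278 in Homecage) and C1qc at -0.26 (676 and 773) in the authors' deposited table. Both had an unadjusted p under 0.05, 0.0324 for Trem2 and 0.0485 for C1qc, and adjusted p-values of 0.410 and 0.446 in the authors' deposited table. C1qa and C1qb were at -0.14 and -0.17, and P2ry12 and Siglech at 0.01 and 0.04, in the authors' deposited table. The dorsal Swim table leans on GC content in the opposite direction, with a Spearman correlation of -0.60 across genes. With the GC trend subtracted C1qa, C1qb and Tmem119 stood at 0.03, -0.06 and 0.05. Of the oligodendrocyte markers 11 of 11 were positive in this table and 1 was called higher.

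After Handling and Restraint the values were smaller. Handling gave medians of 0.04, 0.05 and -0.01 in whole, ventral and dorsal hippocampus, and Restraint gave 0.08, 0.06 and -0.03. The value farthest from 0 was Siglech in ventral Handling, -0.21 in the authors' deposited table, with 235 counts after Handling and 280 in Homecage and an adjusted p of 0.596. In dorsal Restraint C1qc stood at -0.19 in the authors' deposited table, with an adjusted p that did not pass. The intervals of the 9 genes after Handling and Restraint stayed between -0.44 and 0.34 across the ventral and dorsal tables. In whole hippocampus they stayed between -0.28 and 0.296. With Swim included, the intervals stayed between -0.56 and 0.41 in ventral and dorsal hippocampus, and between -0.28 and 0.67 in whole hippocampus.

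Whether Swim acted differently in the regions was tested as a difference of log2 fold changes, with the derived errors and an adjustment over all genes held in both tables. Ventral minus dorsal, Tmem119 alone passed among the 9, with 0.24 in ventral and -0.11 in dorsal hippocampus and a difference of 0.36 ± 0.11 (SE, adjusted p 0.0285), where 10.2% of 13533 genes passed. The difference was 0.01 (adjusted p 0.999) with the GC trend subtracted from both tables and 0.29 (adjusted p 0.0847) with the length trend subtracted. The C1q chains lay in the same direction without passing, C1qc at 0.46 (adjusted p 0.0623), C1qb at 0.31 (adjusted p 0.0672) and C1qa at 0.26 (adjusted p 0.112), and so did Trem2 at 0.40 (adjusted p 0.0989) and Csf1r at 0.10 (adjusted p 0.449). Cx3cr1 at -0.01, P2ry12 at -0.06 and Siglech at -0.11 had negative values. Their intervals were -0.17 to 0.16, -0.26 to 0.15 and -0.36 to 0.15. These directions changed with the GC trend subtracted: C1qa turned to -0.09, Csf1r to -0.004, P2ry12 to 0.21 and Cx3cr1 to 0.01, C1qb and C1qc came to 0.07 and 0.26, and Trem2 and Siglech stayed at 0.32 and -0.03, none of them passing.

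Whole minus dorsal, all 9 Swim differences were positive, with a median of 0.44 and a highest value of 0.59 for C1qc. With the GC trend subtracted the median was 0.25 and all 9 stayed positive, and with the length trend subtracted 8 did. None passed (lowest adjusted p 0.389), 4 had an unadjusted p under 0.05 where 10.1% of all genes did, and 0% of 13530 genes passed. Whole minus ventral, none of the 9 passed either (lowest adjusted p 0.787, none with an unadjusted p under 0.05, 0% of 13603 genes). For Handling and Restraint no member passed in any of the 6 regional differences, where 0.0889% of genes (ventral minus dorsal Handling), 0.0515% (whole minus ventral Handling), 1.98% (ventral minus dorsal Restraint), 0.0221% (whole minus ventral Restraint) and 0% (whole minus dorsal, either treatment) did, and 4 of those 54 values (7.41%) had an unadjusted p under 0.05, against 5.05% of all genes on average. Differences between whole tissue and its parts compare separate dissections and, like the other differences, ignore any pairing of libraries.

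**Figure D5:**
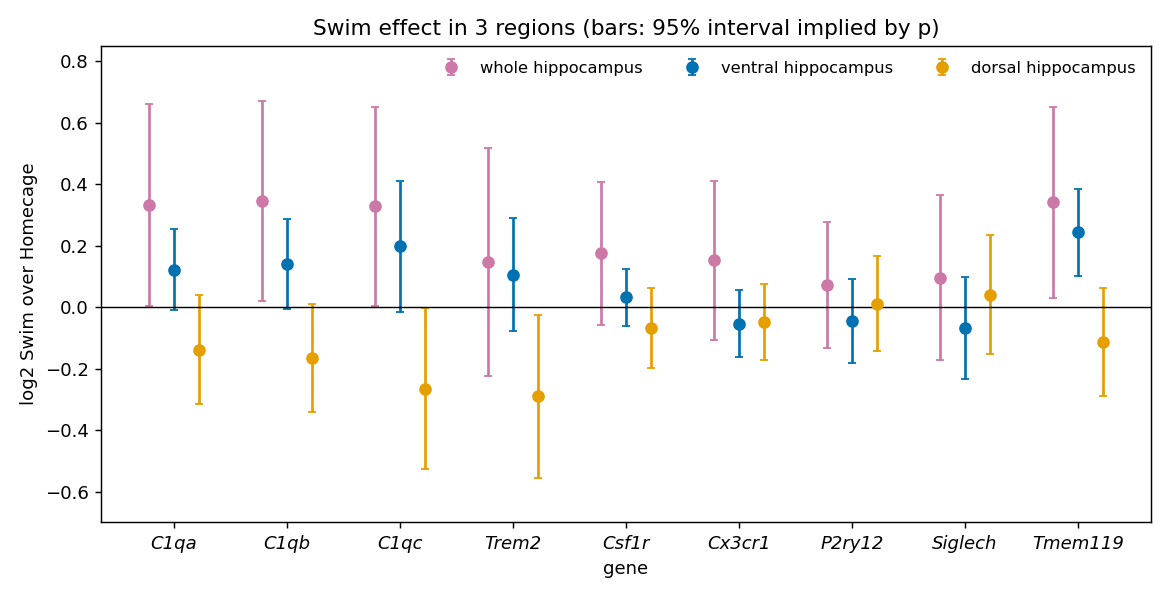
Swim over Homecage as log2 fold change (vertical axis) for each microglia gene in whole, ventral and dorsal hippocampus; points are deposited values and bars are 95% intervals derived from the deposited p. C1qa, C1qb, C1qc, Trem2, Csf1r and Tmem119 are above 0 in whole and ventral and below 0 in dorsal hippocampus, while P2ry12 and Siglech stay between -0.07 and 0.10 in all 3.

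Few related genes were called after a treatment. Treatment values of list genes are given as deposited. In ventral Swim the calls over all genes fell from 640 higher and 315 lower to 76 and 35 with the GC trend subtracted. In the lists around Csf1r and Trem2, the transcription factors and the interferon genes, none was called in any of the 9 treatment tables at the authors' adjusted p. Grb2 and Cbl, adaptors below Csf1r, and the most abundant of that list, ran from -0.02 to 0.06 and from -0.12 to 0.18 in the authors' deposited tables. Apoe and Clu, the most abundant around Trem2, ran from -0.25 to 0.33 and from -0.03 to 0.18 in the authors' deposited tables. Smad3 ran from -0.05 to 0.06, Bhlhe41 from -0.11 to 0.10 and Ifi27, an interferon-induced gene, from -0.16 to 0.20 in the authors' deposited tables. Among other homeostatic genes 1 call was made, Golm1, a Golgi membrane protein, higher by 0.23 in ventral Restraint (adjusted p 0.0435 in the authors' deposited table). P2ry6, a receptor that prompts phagocytosis, was higher by 0.61 in ventral Swim (adjusted p 0.0213) and Sez6, a synaptic complement inhibitor of neurons, by 0.18 there (adjusted p 0.0051), in the authors' deposited table. Spp1, osteopontin, fell by 0.62 on the log2 scale in ventral Restraint (adjusted p 0.0448 in the authors' deposited table).

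The inflammatory list held 7 higher and 2 lower calls over the 9 treatment tables, with 13 to 15 of its genes held in each. Over all genes 0.125% to 2.39% were called in single tables other than ventral Swim, where 4.65% were called higher and 2.29% lower. Of the higher calls of the list, 6 were Nfkbia, the inhibitor of NF-kB and an early response gene of many cell types. Nfkbia was higher by 0.82 in ventral Swim, 0.71 in ventral Restraint, 0.69 in whole Swim, 0.66 in whole Restraint, 0.59 in dorsal Restraint and 0.57 in dorsal Swim in the authors' deposited tables. Nfkbiz, a nuclear relative, was higher by 0.39 in ventral Restraint in the authors' deposited table. Cd200 was lower, at -0.25 in ventral Restraint and -0.20 in ventral Swim in the authors' deposited tables. Il1a, Il1b, Tnf, Il6, Ccl2, Ccl3, Ccl4, Cxcl10 and Cd200r1 were not held in the regional table. Ly6c2, a monocyte marker, was higher by 1.21 in ventral Swim in the authors' deposited table (adjusted p 0.0045), from mean counts of 29.7 after Swim and 12.97 in Homecage, and it was 1 of 2 markers of that list held. Border-associated macrophage, blood, endothelial, pericyte and neuron markers had no call in any treatment table.

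The most abundant markers of those other cell types spanned ranges of the same order as the members, apart from haemoglobin. Stab1 and Mrc1 of border-associated macrophages ran from -0.09 to 0.17 and from -0.47 to 0.41 in the authors' deposited tables. Hbb-bs of the blood list ran from -0.61 to 0.84, and Flt1 and Slco1a4 of endothelium from -0.18 to 0.05 and from -0.23 to 0.20, in the authors' deposited tables. Rgs5 and Vtn of pericytes ran from -0.10 to 0.21 and from -0.19 to 0.09, and Camk2a and Snap25 of neurons from -0.12 to 0.16 and from -0.09 to 0.05, in the authors' deposited tables. Among macroglia, calls were few: Gjb6, an astrocytic connexin, stood at 0.26 in whole Restraint and Sox9, an astrocytic factor, at -0.43 in dorsal Restraint in the authors' deposited tables. The myelin genes Mobp, Cldn11 and Mag were higher, at 0.29 in dorsal Swim, 0.21 in ventral Swim and 0.17 in ventral Restraint in the authors' deposited tables. The precursor markers called in ventral Swim were Olig2 at 0.33, Cspg4 at 0.21 and C1ql1 at 0.38 in the authors' deposited table. Choroid plexus markers had 21 calls over the treatment tables, all higher, from 7 to 12 genes held in each. F5 stood at 4.30 and Slc4a5 at 5.12 in ventral Handling in the authors' deposited table, where 0.856% of all genes were called.

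The genes most alike to the members were sought by the Pearson correlation of their log2 CPM over the 12 group means with the mean of the members, each centred on its own mean. Among 11352 genes with a mean of at least 5 CPM, Taldo1 came first at 0.988, followed by Laptm5 and Ubald2 at 0.972, Ubac2 at 0.959, Rab35 at 0.958, Syf2 at 0.954 and Selenow and Abhd12 at 0.953. Taldo1 encodes transaldolase of the pentose phosphate pathway, Rab35 a GTPase of endocytic recycling, Selenow a selenoprotein and Abhd12 a lipase of lysophosphatidylserine. Laptm5 alone of these is on the list of homeostatic microglia genes. The shared profile was highest in whole Swim at 0.17 and lowest in ventral Handling and ventral Homecage at -0.16 on the log2 scale. The 12 points share depth scaling and 3 dissections, so that the correlation describes these groups only. The members themselves, which are part of that mean, correlated with it at 0.957 for C1qb, 0.938 for Trem2, 0.922 for C1qc, 0.916 for Cx3cr1, 0.847 for C1qa, 0.783 for Tmem119, 0.697 for Siglech and 0.689 for Csf1r. P2ry12 followed it least, at 0.455, and its highest levels were those of whole hippocampus. Among the 11352 genes C1qb ranked 6, Trem2 22, C1qc 38, Cx3cr1 43 and C1qa 196. Tmem119 ranked 510, Siglech 929, Csf1r 974 and P2ry12 2164, so that many genes outside the members followed the mean more closely than these.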

How the data were processed

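Libraries were poly(A)-enriched with Illumina TruSeq reagents, per the labels' protocols. Per the file headers, the deposited tables give group mean estimated counts, a fold change (a ratio), its log2 value, a p-value and an adjusted p-value from a test by the authors. That test, the aligner and the counting program were not stated in the labels; Bowtie 0.12.2 and mm8 stand in the submitters' processing notes without a role. Values per library were not used here, so planned count tests gave way to the authors' adjusted p at 0.05, and p-values measure the spread between 5 libraries a group, which may be technical.

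Tables held 13610 to 13784 genes after 144 to 148 repeated entries were dropped. An error was derived as the absolute log2 fold change over the normal quantile of its p, and regional differences were divided by the root of the summed squared errors (approximate; checked on simulated data). CPM used group totals with exact Poisson intervals. Alternatives were total-count scaling, median centring, lowess trends (fraction 0.3) on GC content and length from GENCODE M21 (99.76% or more of IDs), a threshold of 0.1 and a mean of at least 100 counts. The longest coding transcript and the GC trend for lists were added after seeing the data. Members and lists were chosen with earlier results of these data known. Named genes were the members, up to 3 called genes per list in treatment tables or the 2 most abundant of a list without calls, the 8 most alike genes, Fos and Ttr. List genes named for the regional table were chosen after their values were seen. Some genes that this rule takes are not reported here. Python 3.11.15, pandas 2.3.3, scipy 1.17.1 and statsmodels 0.14.6 were used.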

Additional observations from a re-analysis of the deposited data

Results flagged for a closer look

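The change of Tmem119 from Homecage to Swim differed between ventral and dorsal hippocampus by the deposited values. Its levels after Swim were 20.1 CPM in ventral and 19.97 CPM in dorsal hippocampus. The ventral minus dorsal difference was 0.36 on the log2 scale (0.24 in ventral and -0.11 in dorsal hippocampus, SE 0.11, adjusted p 0.0285), and it was picked out because a test of the difference itself passed. With the trend on transcript GC content subtracted from both tables the difference was 0.01 (adjusted p 0.999), and with the length trend subtracted 0.29 (adjusted p 0.0847). Both Swim tables follow GC content, with Spearman correlations of 0.70 in ventral and -0.60 in dorsal hippocampus. Tmem119 has a GC content higher than 94.8% of the genes tested, and C1qa, at the same rank, had a difference of 0.26 (adjusted p 0.112). No sample could be set apart within a group, since the tables hold no values of single libraries.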

How the results depend on the processing

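Of 174 summary values under the alternatives 166 kept their direction and stayed within the set limits, and 8 moved, all under the GC or length trend. With the GC trend subtracted, ventral Swim had 0 members called and a median of 0.0149, the regional Homecage table a median of -0.25, the ventral minus dorsal Swim difference 0 members called and a median of 0.0141, and the whole minus dorsal Swim difference a median of 0.25. With the length trend subtracted, the ventral minus dorsal Swim difference had 0 members called and a median of 0.14. Calls over all genes in ventral Swim numbered 640 higher and 315 lower as deposited, and 76 and 35 with the GC trend subtracted. Of 783 values of single members 740 were unchanged in this sense, 37 moved, 5 lost a call, 1 gained one and none with a call changed sign; 44 values without a call did. Leaving out choroid plexus, blood and mitochondrial genes raised the CPM of members by 6.33% to 10.5%. No paired analysis was possible because the deposited tables hold no values of single libraries, and for the same reason no replicate could be left out. Depth limits the level of Trem2 most, with 185 to 278 estimated counts a library.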
